A study of Rattus norvegicus with 20 samples.

Results

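Fads1, Fads2, Elovl5 and Elovl2 encode the enzymes that build long polyunsaturated fatty acids, and their messenger RNA was followed here in the liver of rats on graded food restriction. The measurements came from Affymetrix rat expression arrays, which read a transcript with a probe set, a group of short probes. Probe sets annotated to exactly 1 of these genes were taken, which gave 2 for Elovl5, 1 for Fads1 and 1 for Fads2. In the probe annotation used here 0 probe sets were listed for Elovl2, so Elovl2 was not analysed here. The 3 measured genes stood among 10411 genes with a probe set of their own, of which 7056 were bright enough to test, and all 4 of their probe sets passed that filter on low signals.

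The animals were male Wistar rats, an outbred laboratory strain. Starting at 6 weeks of age they received a control diet without restriction, or 5, 10, 20 or 30% less food, and this lasted 1 week or 1 month. All groups, controls included, fasted for 16 h ahead of liver collection. On the labels the 1 week arrays carry an age of 6 weeks and the 1 month arrays one of 9 weeks, without saying at which point. RNA of 5 rats was pooled for each of the 10 combinations of diet and duration, and each pool was run on 2 arrays, 20 in all. A pool is therefore the replicate (n = 10), no combination has a second pool, and the p-values are based on the scatter of pools around the model. The spread between single rats is not measured.

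Mammals make long polyunsaturated fatty acids from the dietary essential fatty acids linoleic acid and alpha-linolenic acid, and the liver is a main site of this work. Fads2 places the first new double bond, Elovl5 lengthens the chain, and Fads1 places the next double bond, which yields arachidonic acid and eicosapentaenoic acid. Elovl2 lengthens these further on the way to docosahexaenoic acid. The genes are known targets of the lipogenic transcription factor SREBP-1c, encoded by Srebf1, and of the fatty acid receptor PPARalpha.

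The promoters of the 3 measured genes are shown because the genes share a pathway while their signals did not move alike with restriction. Each window runs from 250 bases before to 50 bases after the RefSeq start of the gene in the GRCr8 assembly, 5' to 3' on the strand of the gene. The windows lie at chr8:87670914-87671213 on the plus strand for Elovl5, at chr1:216252442-216252741 on the plus strand for Fads1 and at chr1:216171984-216172283 on the minus strand for Fads2. Capitals mark matches to any of 7 motifs searched on both strands.
Elovl5: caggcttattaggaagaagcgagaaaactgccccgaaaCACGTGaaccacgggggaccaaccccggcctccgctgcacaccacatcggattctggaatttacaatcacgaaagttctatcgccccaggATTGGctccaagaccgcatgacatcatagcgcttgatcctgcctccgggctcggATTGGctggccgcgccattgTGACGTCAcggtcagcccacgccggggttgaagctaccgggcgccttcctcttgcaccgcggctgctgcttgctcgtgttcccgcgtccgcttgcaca
Fads1: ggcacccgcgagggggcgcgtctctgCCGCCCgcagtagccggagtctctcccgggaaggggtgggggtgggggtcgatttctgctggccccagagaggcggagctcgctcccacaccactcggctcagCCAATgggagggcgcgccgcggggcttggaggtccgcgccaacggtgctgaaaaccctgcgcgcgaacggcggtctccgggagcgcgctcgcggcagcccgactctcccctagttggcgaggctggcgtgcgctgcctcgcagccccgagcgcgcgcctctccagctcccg
Fads2: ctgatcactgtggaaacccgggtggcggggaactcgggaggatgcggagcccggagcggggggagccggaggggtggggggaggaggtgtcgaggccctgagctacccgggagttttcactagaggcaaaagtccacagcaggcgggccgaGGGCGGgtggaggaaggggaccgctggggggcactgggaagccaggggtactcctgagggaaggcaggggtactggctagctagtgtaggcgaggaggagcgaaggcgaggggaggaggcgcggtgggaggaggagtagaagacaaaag

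The Elovl5 window held 4 matches. An E-box, CACGTG, began 212 bases before the start. A CCAAT box lay on the opposite strand at 122 and at 68 bases before the start, and the cyclic AMP response element TGACGTCA began 48 bases before it. The Fads1 window held a CCAAT box 121 bases and a GC box on the opposite strand 224 bases before the start, and the Fads2 window held a single GC box, GGGCGG, 99 bases before it. Of all 33469 rat promoter windows of the same length, CACGTG was in 6.42%, CCAAT in 37.5%, TGACGTCA in 1.83% and GGGCGG in 33.1%. The sterol regulatory element TCACNCCAC, which 1.12% of windows hold, had 0 matches in the 3 windows. The same held for AGGTCA repeated with 1 base between the copies (DR1, in 0.0538% of windows) or with 4 (DR4, in 0.00598%). A match is a string of letters and no evidence of binding. Fads1 and Fads2 are neighbours on chromosome 1, point away from each other and have 1 annotated pseudogene between them, while Elovl5 lies on chromosome 8.

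Across all levels and both durations, Elovl5 and Fads1 fell with increasing restriction and Fads2 did not pass the test. From no restriction to 30%, the fitted Elovl5 signal fell 2.56-fold by the brighter probe set and 2.30-fold by the dimmer one, and Fads1 fell 1.78-fold. Of the 4 probe sets, 3 were lower past an adjusted p of 0.05 in this dose trend, against a background of 1.96% of the 9520 probe sets tested. Both Elovl5 probe sets are among these 3. The members were chosen with earlier results of these data known, so the contrast with the background is a description and no independent support. Signals below are MAS5 intensities in arbitrary units after quantile normalization, and levels are not compared between probe sets, since probes differ in how strongly they bind.

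**Figure D1:**
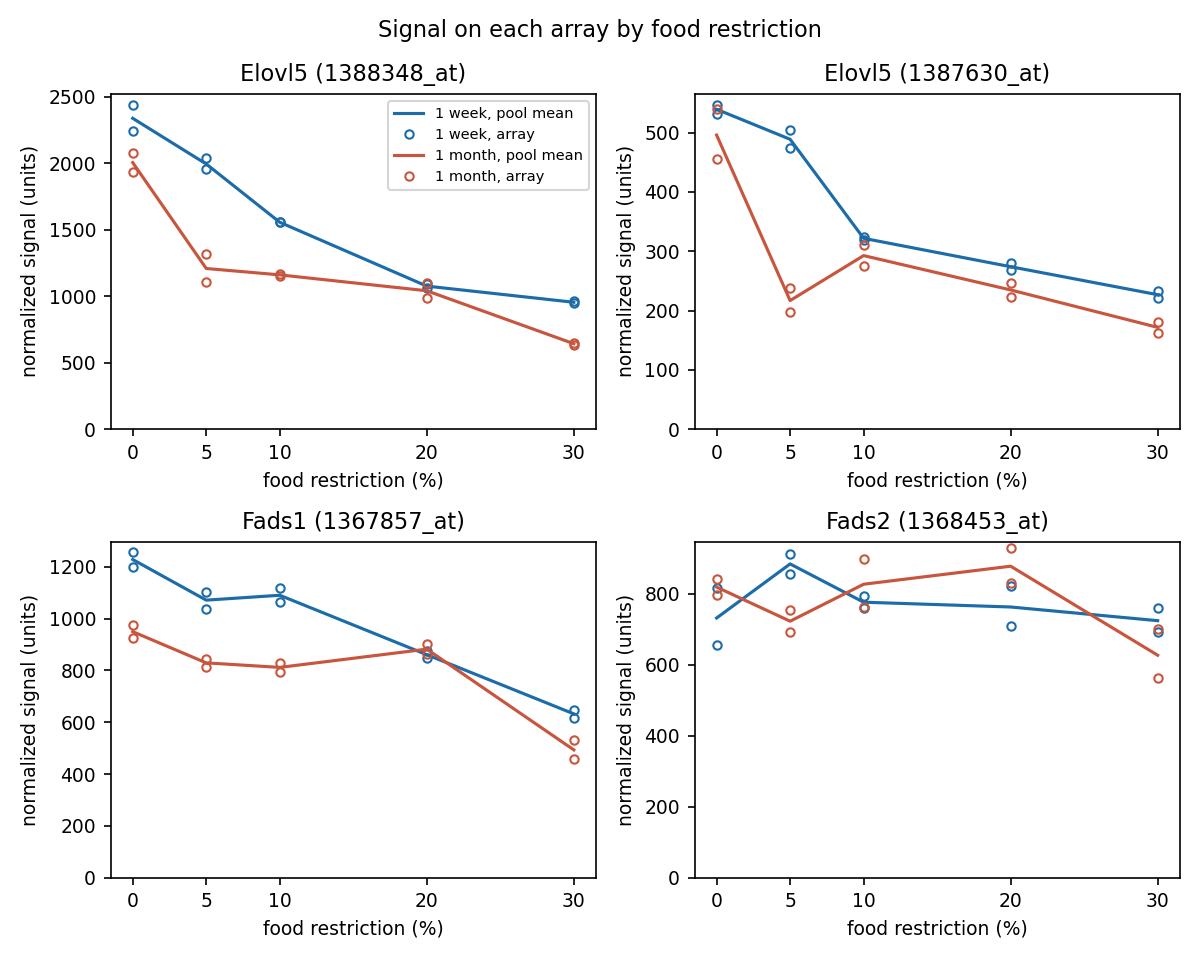
Normalized signal (units, linear axis from 0) against food restriction (%) for the 4 probe sets; open circles are single arrays, lines join pool means, blue is 1 week and red is 1 month. Both Elovl5 probe sets and Fads1 lie below their own control on both arrays in every restricted pool, while the Fads2 circles overlap their control in most pools.

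Elovl5, the elongase, was read most steadily by its brighter probe set, 1388348_at, whose paired arrays had a median SD of 0.04 on the log2 scale. At 1 week its arrays read 2436 and 2246 units in the control pool, 1954 and 2037 at 5%, 1557 on both at 10%, 1092 and 1062 at 20%, and 947 and 964 at 30%. No pool overlapped its neighbour, so the signal stepped down at every level. The pool mean was 85.3% of control at 5%, 66.6% at 10%, 46.0% at 20% and 40.9% at 30%. At 1 month the same probe set read 1934 and 2081 units in the control pool, 1111 and 1317 at 5%, 1154 and 1169 at 10%, 989 and 1098 at 20%, and 650.5 and 637 at 30%. Here the largest step between neighbouring levels lay between control and 5%, where the pool stood at 60.3% of control. The 5 and 10% pools overlapped, and the signal fell again from 51.9% of control at 20% to its lowest, 32.1%, at 30%.

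The dimmer Elovl5 probe set, 1387630_at, ran in the same order at 1 week. Its arrays read 547 and 532 units in the control pool, 474 and 504 at 5%, 319.7 and 324 at 10%, 268 and 280.0 at 20%, and 221 and 233 at 30%. Again no neighbouring pools overlapped, and the 30% pool was at 42.1% of control. At 1 month it read 455 and 540.3 units in the control pool, 197 and 238 at 5%, 276 and 311 at 10%, 247 and 223 at 20%, and 163 and 181 at 30%. The 5% pool was out of order there, at 43.8% of control below both the 10% pool (59.0%) and the 20% pool (47.4%), though its arrays overlapped those of the 20% pool. Over the 10 pools the log2 signals of both Elovl5 probe sets had a Pearson r of 0.957, a description of probe sets for 1 gene on shared arrays.

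In the dose trend, the brighter Elovl5 probe set had a log2 change of -1.36 ± 0.133 (SE, n = 10 pools) over 30 percentage points, with an adjusted p of 0.00117 in limma, the 2nd smallest p of all 9520. For the dimmer one the change was -1.20 ± 0.214 with an adjusted p of 0.0133. For the latter the adjusted p was 0.0639 without the 30% pool at 1 week (change -1.24), 0.104 without both 30% pools (-1.37), 0.111 without both control pools (-0.87), 0.0873 with the GAPDH ratio (-1.47) and 0.0538 without the variance trend of the model (-1.20). For the brighter one the adjusted p was 0.0571 with the GAPDH 3'/5' ratio of the pools, a sign of RNA quality, as a covariate (change -1.31) and 0.0460 without both 30% pools (change -1.46).

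Fads1, the later desaturase, was lowest at 30% restriction at both durations. At 1 week its arrays read 1255 and 1201 units in the control pool, 1104 and 1039 at 5%, 1118 and 1062 at 10%, 846 and 875 at 20%, and 647 and 618 at 30%. Every restricted pool lay below the control arrays, and the 5 and 10% pools overlapped each other. The 20% pool was already at 70.1% of control and the 30% pool at 51.5%. At 1 month the arrays read 924 and 975 units in the control pool, 845 and 813 at 5%, 794 and 829.7 at 10%, 863 and 901 at 20%, and 459 and 531 at 30%. The 5, 10 and 20% pools stayed between 85.5 and 92.9% of control, and the 30% pool stood apart at 52.0%. The dose trend was -0.84 ± 0.134 on the log2 scale (SE, n = 10 pools; adjusted p = 0.00886). Without both 30% pools it was -0.41, with an adjusted p of 0.257, so the call rests on those pools. The adjusted p was 0.0661 without the 30% pool at 1 week alone (change -0.74), 0.0613 without both control pools (-0.88) and 0.323 on the signals as deposited (-0.75).

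Fads2, the desaturase of the first step, showed no ordered change. At 1 week its arrays read 654 and 817 units in the control pool, 856 and 912 at 5%, 792 and 759 at 10%, 708 and 820.3 at 20%, and 758 and 691 at 30%. The 5% pool lay above the control arrays and all other pools overlapped them. At 1 month the arrays read 841 and 796 units in the control pool, 691 and 755 at 5%, 761 and 896 at 10%, 927 and 829.7 at 20%, and 699 and 561 at 30%. The 5% and 30% pools lay below the control arrays there, at 88.3 and 76.6% of control. The dose trend was -0.17 ± 0.119 on the log2 scale (adjusted p = 0.477), with a 95% interval from -0.43 to 0.08. Of the 4 probe sets it also varied most between the arrays of a pool, with a median SD of 0.10 on the log2 scale.

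The members were then set against each other by the ratio of their signals within a pool, which cancels any scaling shared by an array. Of 6 pairs, 4 had dose slopes that differed past an adjusted p of 0.05 in a two-sided exact permutation test that moved the pools among levels within each duration, adjusted over the 6 pairs. The smallest p that its 14400 permutations can give is 6.94e-05. The pairs share members, so their results are not independent of each other, and the test was added after seeing the data. How often pairs of other probe sets would pass it was not counted, so the 4 of 6 has no background beside it. Relative to Fads2, Elovl5 fell by 1.18 on the log2 scale over 30 percentage points by the brighter Elovl5 probe set (exact permutation, adjusted p = 0.00334) and by 1.03 by the dimmer one (exact permutation, adjusted p = 0.0131). Fads1 fell by 0.66 relative to its neighbour Fads2 (exact permutation, adjusted p = 0.00396), or by 0.52 without both 30% pools (exact permutation, adjusted p = 0.0833). At 30% restriction the ratio of the brighter Elovl5 probe set to Fads2 was 0.413 of its control value at 1 week and 0.419 at 1 month.

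Between Elovl5 and Fads1 the difference was smaller and less firm. By the brighter Elovl5 probe set Elovl5 fell by 0.52 relative to Fads1 (exact permutation, adjusted p = 0.0435), and when each of the 10 pools was left out in turn the adjusted p stayed under 0.05 only where the 10% or the 30% pool at 1 week was the one missing. By the dimmer one the difference was -0.36 (exact permutation, adjusted p = 0.305). The probe sets of Elovl5 differed from each other by -0.16 (exact permutation, adjusted p = 0.364). Probe sets can compress a change by different amounts, so these are differences in measured log2 signal.

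**Figure D2:**
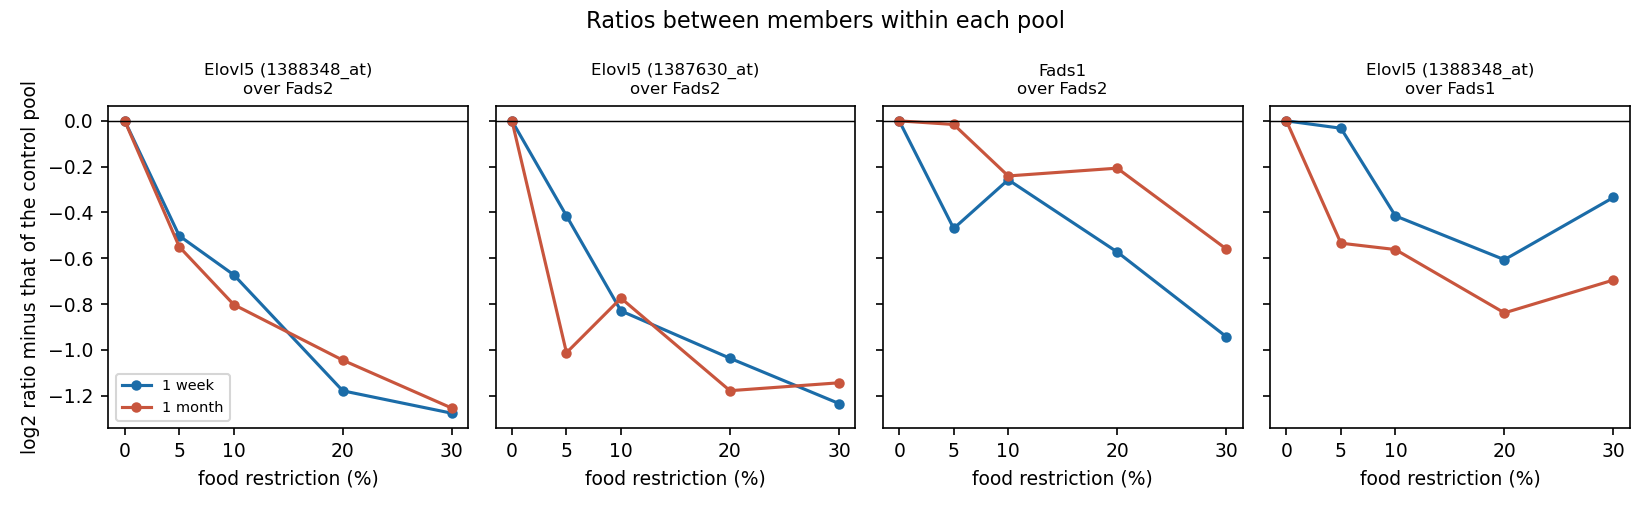
Log2 ratio between members within each pool, minus that of the control pool of the same duration, against food restriction (%); each point is 1 pool, blue 1 week and red 1 month. The ratios to Fads2 of both Elovl5 probe sets end below -1.1 at 30% at both durations, and that of Fads1 ends at -0.94 at 1 week and -0.56 at 1 month.

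Each level was also compared with control over both durations in 1 fit; the 4 comparisons share the 2 control pools. At 5% restriction 0 of the 4 probe sets passed the limma test, beside 0.179% of all tested probe sets lower, with log2 differences of -0.48 and -0.67 for the brighter and the dimmer Elovl5 probe set, -0.20 for Fads1 and 0.05 for Fads2. Both Elovl5 probe sets had an unadjusted p under 0.05 there (0.00649 and 0.0120 in limma), as did 4.45% of all probe sets in the lower direction. At 10% 1 passed, the brighter Elovl5 probe set at -0.69 (adjusted p = 0.0377; background 0.851% lower). At 20% both Elovl5 probe sets passed at -1.03 each (adjusted p = 0.00434 and 0.0312; background 1.64% lower), and Fads1 was at -0.31 (adjusted p = 0.195). At 30% Elovl5 fell by 1.47 and 1.39 and Fads1 fell by 0.95 (adjusted p = 0.000875, 0.00607 and 0.00156; background 2.08% lower), so 3 passed. With the actin 3'/5' signal ratio of the pools, a sign of RNA quality, as a covariate, 0 of these 3 passed at 30%, at log2 differences of -1.46 and -1.78 for Elovl5 and -0.78 for Fads1. Over all 9520 probe sets 1 passed in that fit, in place of 431. The calls at 10 and 20% were lost on the signals as deposited and without the variance trend. At 30% Fads1 lost its call on the signals as deposited (limma, adjusted p = 0.0919). Without the variance trend Fads1 and the dimmer Elovl5 probe set lost theirs at 30% (limma, adjusted p = 0.0504 and 0.0766). Fads2 at 30% was at -0.20, with a 95% interval from -0.49 to 0.09.

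**Figure D3:**
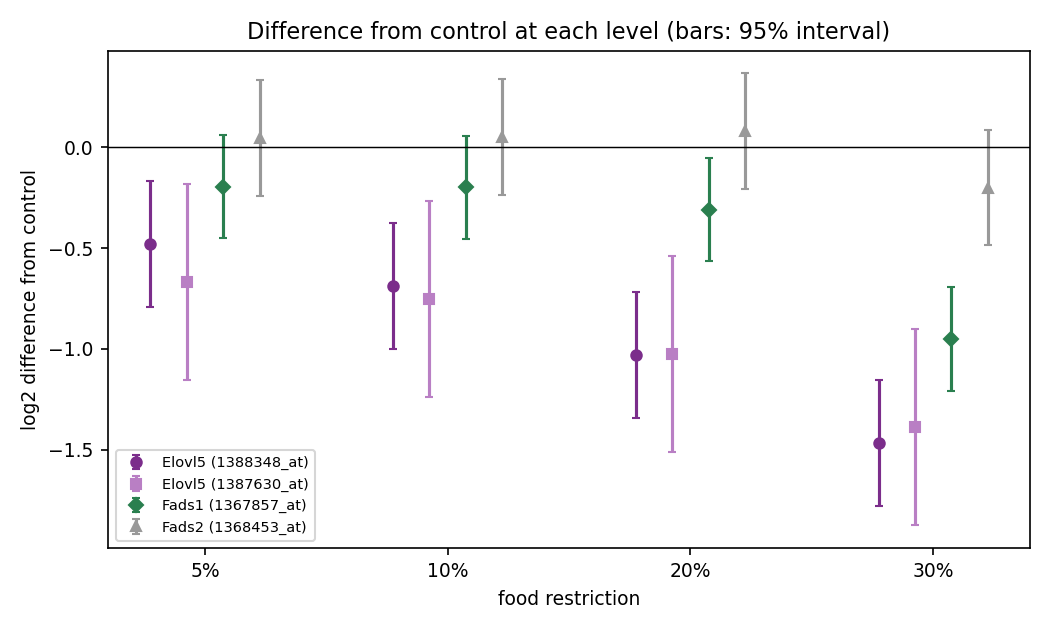
Log2 difference from control at 5, 10, 20 and 30% food restriction over both durations, with bars for the 95% interval of the limma fit (2 pools at a level against 2 control pools). The Elovl5 points move from -0.48 and -0.67 at 5% to -1.47 and -1.39 at 30%, Fads1 leaves the range of -0.20 to -0.31 only at 30%, and every Fads2 interval includes 0.

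Taking all 8 restricted pools together against the 2 control pools, 1 of the 4 probe sets passed, beside 2.11% of all probe sets lower. This was the dimmer one of Elovl5 at -0.96 ± 0.234 (SE; adjusted p = 0.0318). The brighter one was at -0.92 (adjusted p = 0.0572), Fads1 at -0.41 (adjusted p = 0.318) and Fads2 at -0.01 (adjusted p = 0.983). This step comparison lost its 1 call without either control pool, without either 20% pool and without the 5% pool at 1 month.

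The dose slope was also fitted for each duration on its own. At 1 week the slope of the brighter Elovl5 probe set was -1.35 (adjusted p = 0.0239) and it alone passed, 1 of 4, against 0.42% of all probe sets lower; the dimmer one was at -1.28 (0.0839 as adjusted p), Fads1 at -0.92 (adjusted p = 0.0588) and Fads2 at -0.12 (adjusted p = 0.807). At 1 month the slopes were -1.36, -1.12, -0.75 and -0.23 in the same order, and 0 of 4 passed, beside 0.0315% lower. The call at 1 week was lost without the control, 5, 20 or 30% pool of that duration and on the signals as deposited. At an unadjusted p under 0.05, 3 of the 4 were lower at 1 month in limma, beside 5.59% of all probe sets, with p of 2.44e-05, 0.00439 and 0.00269 for the brighter and the dimmer Elovl5 probe set and Fads1. The slope at 1 month minus that at 1 week was -0.00 for the brighter Elovl5 probe set, with a 95% interval from -0.61 to 0.61, and 0.15 for the dimmer one (-0.83 to 1.13). It was 0.17 for Fads1 (-0.44 to 0.77) and -0.11 for Fads2 (-0.65 to 0.43). None passed (lowest adjusted p 0.973, lowest unadjusted p 0.560), and over all 9520 probe sets 0 passed, 0% as background, with 525 at an unadjusted p under 0.05.

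In a fit over all levels the 1 month pools were lower than the 1 week pools. This is an average, and at 20% Fads1 read 882 units at 1 month and 861 at 1 week. The fitted log2 differences were -0.40, -0.41 and -0.30 for the brighter and the dimmer Elovl5 probe set and Fads1. None of these passed after adjustment in limma (adjusted p = 0.116, 0.351 and 0.263; background 0.168% lower), while all 3 had an unadjusted p under 0.05 (0.00126, 0.020 and 0.00932), as did 5.38% of all probe sets in the lower direction. Fads2 was at -0.01. Duration and the age on the labels change together, so they cannot be told apart.

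By single pools, both arrays of the restricted pool lay below both control arrays in 12 of 16 combinations of probe set and level at 1 week and in 14 of 16 at 1 month. Over all tested probe sets, 24% of such combinations were lower at 1 week and 23.9% at 1 month. A log2 difference of at least 1 in addition was reached in 3 combinations at 1 week and 4 at 1 month, all of Elovl5, beside 2.22% and 2.32% of combinations over all tested probe sets. With 1 pool on each side these counts carry no test.

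Genes around the pathway included both some that fell and some that rose. Of the other fatty acid desaturases and elongases, 4 of 12 listed passed the filter on low signals; 2 fell, 1 rose and 1 did not pass, with a median log2 slope of -0.64 against 0.00 over all tested probe sets, of which 187 fell and 171 rose. Elovl6, which elongates saturated and monounsaturated chains, fell by 1.64 ± 0.276 (SE; adjusted p = 0.0107), from 65.9 units in the control pool to 14.5 at 30% at 1 week and from 47.9 to 14.9 at 1 month. Scd, which makes monounsaturated fatty acids, fell by 1.03 ± 0.185 (adjusted p = 0.0136), from 3211 to 1658 units at 1 week and from 3799 to 1445 at 1 month. Degs1, the ceramide-forming sphingolipid desaturase, rose by 0.79 ± 0.151 (adjusted p = 0.0174), and Elovl1 was at -0.26 (adjusted p = 0.382). The Elovl6, Scd and Degs1 calls were lost in 1, 1 and 2 of 10 fits without single pools. In other alternatives of the processing they were lost in 4 of 12, 6 of 13 and 7 of 13. Fasn, the fatty acid synthase, fell by 3.87 ± 0.550 (adjusted p = 0.00610).

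The 3 tested enzymes that complete each round of elongation did not pass, a count too small to set against the background, at 0.07 for Hsd17b12, -0.09 for Hacd2 and -0.18 for Hacd3. Among the 4 electron donors of desaturases that were tested, Cyb5a, the cytochrome that feeds these enzymes, rose by 0.36 (adjusted p = 0.0169) and its reductase Cyb5r3 fell by 0.38 (adjusted p = 0.0370). Cyb5r4 was at -0.24 and did not pass. The Cyb5r3 call was lost in 6 of 10 fits without single pools and in 9 of 13 other alternatives. For Cyb5a these counts were 2 and 8. Of 8 tested genes of peroxisomal chain shortening, the last step towards docosahexaenoic acid, 2 rose and 0 fell, beside 1.8% and 1.96% of all tested probe sets. These were Decr2, a reductase for the double bonds of polyunsaturated chains, at 0.85 ± 0.117 (adjusted p = 0.00541), and the bifunctional enzyme Ehhadh at 0.96 ± 0.224 (adjusted p = 0.0372). Decr2 went from 273 units in the control pool to 515 at 30% at 1 week and from 327 to 560.0 at 1 month. Hsd17b4, the other bifunctional enzyme, was at 0.23 (adjusted p = 0.124). The Ehhadh call was lost in 6 of 10 fits without single pools and in 7 of 13 other alternatives. For Decr2 these counts were 0 and 4.

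Genes that use the products were followed in 3 lists, for activation, acylation and oxygenation. Of 7 tested genes for fatty acid activation 0 passed in the dose trend, with Acsl5 at -0.46 (adjusted p = 0.0586), Slc27a5 at 0.43 (adjusted p = 0.0685) and Acsl4, which favours arachidonic acid, at 0.33 (adjusted p = 0.133). Of 7 genes for phospholipid acylation 0 passed, with Lpcat3, which places polyunsaturated chains into phospholipids, at -0.63 (adjusted p = 0.156), Agpat3 at -0.69 (adjusted p = 0.246) and Lclat1 at 0.23 (adjusted p = 0.325). Of 12 genes for release and oxygenation of polyunsaturated fatty acids 1 rose, the epoxygenase Cyp2j4 at 0.80 ± 0.145 (adjusted p = 0.0136). The Cyp2j4 call was lost in 2 of 10 fits without single pools and in 7 of 13 other alternatives. The phospholipase Pla2g12a was at 1.87 (adjusted p = 0.0895), with both control pools under the lowest mean signal tested, 11.7 units, and Pla2g6 was at -0.80 (adjusted p = 0.159). Over these 3 lists 1 gene of 26 passed in the dose trend, where 1.8% of all tested probe sets rose and 1.96% fell.

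In the comparison of all restricted pools with control, 4 of these 26 genes were lower and 4 higher, beside 2.11% lower and 3.16% higher over all tested probe sets. Lower were Acsl3 at -1.35 (adjusted p = 0.00537), Lpcat3 at -0.76 (adjusted p = 0.0140), Acsl5 at -0.43 (adjusted p = 0.0279) and Agpat2 at -0.52 (adjusted p = 0.0412). Higher were the fatty acid transporters and activators Slc27a2 at 0.39 (adjusted p = 0.0201) and Slc27a5 at 0.43 (adjusted p = 0.0203), Cyp2j4 at 0.69 (adjusted p = 0.0154) and Pla2g12a at a fitted 2.12 (adjusted p = 0.00434). Acsl3, Agpat2 and Slc27a2 are named after their values were seen. For genes other than the members this comparison was not repeated over the alternatives. Over all tested probe sets it had 201 lower and 301 higher. Without the control pool at 1 week these counts were 19 and 98, and without that at 1 month 13 and 49. Of the lists nearer to the members, Elovl6 at -1.25 (adjusted p = 0.0437) and Cyb5r3 at -0.34 (adjusted p = 0.0260) were lower in that comparison, and Degs1 at 0.67 (adjusted p = 0.0235) and Ehhadh at 0.83 (adjusted p = 0.0357) higher.

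Among 13 tested transcriptional regulators 1 fell and 0 rose in the dose trend, where 1.96% of all tested probe sets fell. Srebf1 fell by 1.57 ± 0.214 (adjusted p = 0.00541), from 647 units in the control pool to 392, 292, 208 and 198 at 5, 10, 20 and 30% at 1 week and from 656 to 349, 325, 313 and 176 at 1 month. Its pool means thus stepped down at each level at both durations. Hnf4a was at 0.44 (adjusted p = 0.0898), Scap, the escort of the SREBP proteins, at -0.48 (adjusted p = 0.106), and Ppara, which encodes PPARalpha, at 1.11 ± 0.753 (adjusted p = 0.474). In the step comparison 3 of the 13 were lower and 0 higher, beside 2.11% and 3.16% of all tested probe sets: Srebf1 at -1.26 (adjusted p = 0.0154), Insig1 at -2.74 (adjusted p = 0.00106) and Insig2 at -1.22 (adjusted p = 0.0207). The Insig proteins hold SREBP precursors in the endoplasmic reticulum. Ppara and both Insig genes are named here after their values were seen. The step calls of these regulators were likewise not repeated over the alternatives.

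**Figure D4:**
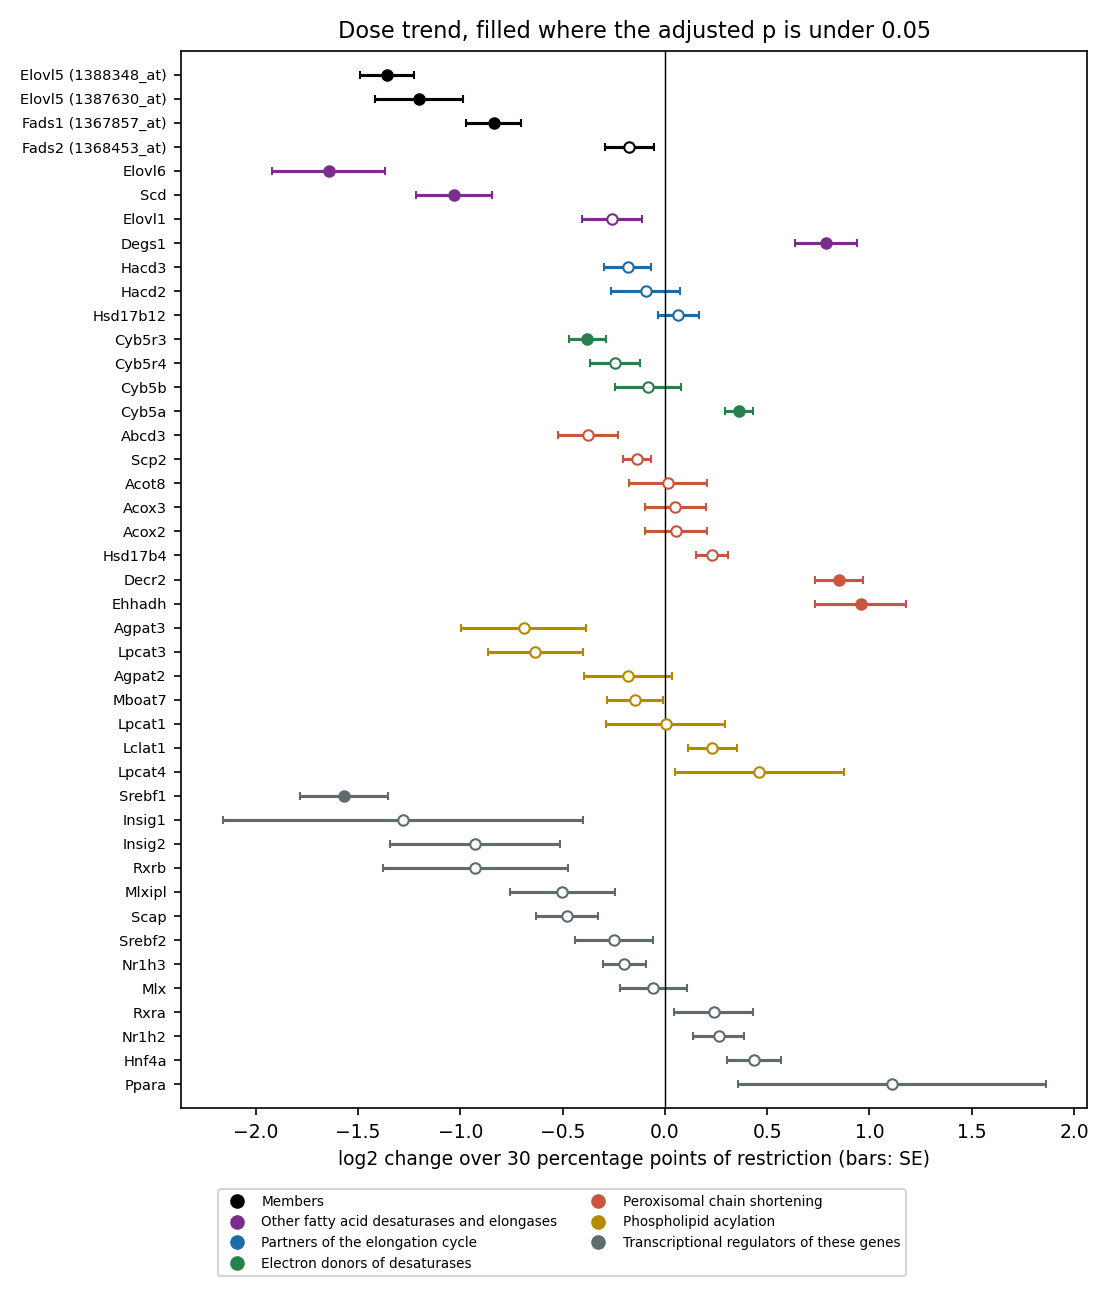
Log2 change over 30 percentage points of restriction in the limma dose trend, with bars for the SE (10 pools), for the 4 member probe sets and 6 lists of related genes; filled points have an adjusted p under 0.05. Elovl5, Fads1, Elovl6, Scd, Cyb5r3 and Srebf1 are the filled points below 0, and Degs1, Cyb5a, Decr2 and Ehhadh those above 0.

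The genes most like each member were ranked by Pearson r of log2 signal over the 10 pools, among 7054 other genes, as a description of pools that share their diet steps. For the brighter Elovl5 probe set these were Cavin3 (r = 0.985), the liver glycogen phosphorylase Pygl (0.983 as r), Cd164 (r = 0.973) and Arl2bp (r = 0.972). The most opposite were Auh (r = -0.970) and the peroxisomal reductase Decr2 (r = -0.967). For Fads1 they were Snrpa1 (r = 0.957), Ticam1 (r = 0.946), Pygl (r = 0.929) and Tbk1 (r = 0.928), with Pcyt1a (r = -0.955) and Fkbp9 (r = -0.938) most opposite. For Fads2 they were the lysosomal protease gene Ctsd (r = 0.928), Dpysl4 (r = 0.922), Cdipt (r = 0.896) and Ankra2 (r = 0.892), with Pamr1 (r = -0.867) and Dhrs13 (r = -0.862) most opposite. Among the members r was 0.907 between the brighter Elovl5 probe set and Fads1, 0.614 between Fads1 and Fads2 and 0.506 between the brighter Elovl5 probe set and Fads2.

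The liver label was checked against cell type markers. The 6 hepatocyte markers on the array summed to 32925 to 32988 units in the control pools and 31468 to 33815 in the restricted pools, and 0 of 6 passed in the dose trend. Among them Alb read 10756 units in every pool, since it was the brightest probe set on each array and quantile normalization fixes that value, so it carries no information on change. The 4 sinusoidal endothelial markers summed to 196 to 237 units in the control pools and 254 to 329 in the restricted pools. In the dose trend 1 of the 4 rose, beside 1.8% of all tested probe sets. It was Ehd3 at 1.17 (limma, adjusted p = 0.0135), a dim probe set with pool means from 19.2 to 42.9 units. The 4 bile duct markers, 1 of them above the filter, summed to 66.5 to 77.0 units in the control pools and 42.8 to 59.9 in the restricted pools, with 0 called. The 4 Kupffer cell markers summed to 293 to 434 units in control and 291 to 404 in restricted pools, and the 6 stellate cell markers to 378 to 493 and 328 to 545, with 0 called. For 3 red blood cell markers, 2 of them tested, the sums were 1187 to 2120 and 1010 to 1882 units, and for 3 adipocyte markers, 1 of them tested, 42.9 to 43.0 and 36.9 to 51.3, with 0 called. The 4 lymphocyte markers summed to 35.2 to 37.4 and 21.1 to 36.1 units, and 0 of them passed the filter, so they were not tested. The lowest pool level of any marker was 1.10 units, of the lymphocyte gene Cd3d. In whole liver RNA fewer cells of a type and less RNA per cell cannot be told apart, and the part of the endothelial and bile duct shifts in the results was not tested.

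The deposited signals were on different scales from array to array, with a 2% trimmed mean signal from 38.8 to 99.6 units, both extremes on arrays of the 30% pool at 1 month. Signs of RNA quality differed between pools. The GAPDH 3'/5' signal ratio ran from 1.30 to 1.61 over the pools and was lowest in the 30% pool at 1 month (1.30) and the 20% pool at 1 week (1.33). The actin ratio ran from 2.23 to 3.07 and was lowest in the 30% pools (2.23 at 1 week and 2.28 at 1 month). With the GAPDH ratio as a covariate the dose trend of the brighter Elovl5 probe set was -1.31 (adjusted p = 0.0571), that of the dimmer one -1.47 (adjusted p = 0.0873) and that of Fads1 -0.78 (adjusted p = 0.124), and 3 of all 9520 probe sets passed. With the actin ratio they were -1.41 (adjusted p = 0.0254), -1.51 (adjusted p = 0.0430) and -0.62 (adjusted p = 0.101) in the same order, and 45 of all 9520 passed, in place of 358 with neither ratio.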

How the data were processed

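Total liver RNA was labelled and hybridized to Affymetrix arrays, 1 pool of 5 rats per diet level and duration on 2 arrays each, per the labels. The deposited values are linear intensity values for 15923 probe sets. The submitters' processing notes name MAS5 as the tool. Its version and scaling target, and a genome build, are not given in the labels or files used here. The design had taken the intensity values as already scaled; as they were not, all 20 arrays were quantile-normalized, with 32 values of 0 set to the array's smallest positive value. Signals were turned to log2, 57 control probe sets were left out, and the upper 60% by mean (9520) were tested. Arrays of a pool were averaged. limma 3.58.1 in R 4.3.3 (lmFit, eBayes with a variance trend) gave two-sided tests with Benjamini-Hochberg adjustment over 9520 probe sets, at a threshold of 0.05. Slopes are log2 changes over 30 percentage points. A gene other than the members is represented by its brightest tested probe set, named where the platform annotation gives exactly 1 gene. Of each list, up to 3 genes of smallest dose trend p are named, with Fasn, Scd, Elovl6 and Srebf1 always, and the 4 most like and 2 most opposite genes of each member. The members and lists were chosen with earlier results of these data known, and the pairwise slope test was added after seeing the data. Promoters and gene neighbours came from RefSeq tables of the GRCr8 assembly, where 3 of 3 measured genes matched. The scripts were tested on simulated data. Alternatives covered scaling, offset, filter, variance trend, single arrays, the array number as a block, left-out pools and RNA quality covariates.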

Additional observations from a re-analysis of the deposited data

How the results depend on the processing

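Values over the alternatives are counts of the 4 member probe sets called lower, unless stated. In the dose trend the 3 calls became 0 with the GAPDH ratio, 1 without both 30% pools and 1 without both control pools. When each pool was left out they numbered 1 to 3, with 1 without the 30% pool at 1 week. Fads1 alone lost its call on the signals as deposited and with the actin ratio. The dimmer Elovl5 probe set alone lost its call without the variance trend. The 1 call of the 1 week slope became 0 on the signals as deposited, without the variance trend, with the GAPDH or actin ratio, and without both 30% pools; leaving out single pools gave 0 to 3, with 0 without the control, 5, 20 or 30% pool at 1 week and 3 without the control pool at 1 month. The 1 month slope, with 0 calls, had 1 with median centring, with an offset of 16 and without replicate 1, and 0 to 2 without single pools, 2 without the 20% pool at 1 month. The 1 call of the restriction step became 0 as deposited, without the variance trend and with the GAPDH ratio. It became 2 with the offset, with the upper 40% of probe sets, without replicate 2 and with the actin ratio, and ranged from 0 to 2 without single pools. Against control, the 5% level had 0 to 1 calls without single pools, 1 without the 5% pool at 1 week. The 1 call at 10% became 0 as deposited, with median centring, without a filter, without the variance trend, without replicate 1 and with either RNA ratio, and 0 to 2 without single pools, with 0 without either control or either 10% pool and 2 without either 5% pool. The 2 calls at 20% became 0 as deposited and without the variance trend, 1 without replicate 2 and with the GAPDH ratio, and 0 to 2 without single pools (0 without either the 20% pool at 1 week or the control pool at 1 month). The 3 calls at 30% became 1 without the variance trend and 0 with the actin ratio, and 2 to 3 without single pools. Fads1 also lost its call at 30% on the signals as deposited. Duration had 0 to 1, with 1 without the 20% pool at 1 month. Leaving out both pools of a level, and all alternatives for ratios between members, were chosen after seeing the data. Where no value shows it, the cause was not tested.

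The number of the array (1 or 2) does not pair pools: differences between arrays 2 and 1 correlated between pools with a median r of 0.03 (-0.05 to 0.12, above 0.1 in 2 of 45 pairs). In another alternative the arrays entered singly, with the array number as a replicate block and the pool as a random block. Arrays of a pool are repeats of the same RNA, so the extra calls of that fit are no added evidence. In it 3 member probe sets were called in the dose trend and 3 in each of the 1 week and 1 month slopes. In the step, at 5%, at 10% and for duration 2 were called each. Over all probe sets the dose trend had 818 calls in that fit, in place of 358 with pools as the unit. Other scalings gave 58 calls as deposited and 143 with median centring, 40 and 116 of them lower.

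The slope of the brighter Elovl5 probe set relative to Fads1 was -0.45 without replicate 2 (exact permutation, adjusted p = 0.110), -0.29 without both control pools (exact permutation, adjusted p = 0.271) and -0.71 to -0.37 without single pools. Without both control pools the dimmer one relative to Fads1 was 0.0027 and relative to Fads2 -0.61 (exact permutation, adjusted p = 0.0625), and without both 30% pools Fads1 relative to Fads2 was -0.52 (exact permutation, adjusted p = 0.0833).

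Signs turned only for values that had not passed. For Fads2 these were 0.11 in the dose trend and 0.25 in the 1 month slope without both 30% pools, 0.024 in the 1 week slope without replicate 2, 0.22, 0.054, 0.041 and 0.019 in the step (as deposited, without replicate 2, GAPDH and actin ratio), and 0.18, 0.054 and 0.041 for duration (as deposited, without replicate 2, without both 30% pools). Fads1 as deposited was at 0.11 at 10% and 0.047 at 20%. The difference between slopes turned for the brighter Elovl5 probe set to 0.00081 (offset), 0.10 (without replicate 2), 0.042 (GAPDH), 0.0088 (actin), 0.49 (without both 30% pools) and 0.22 (without both control pools), for the dimmer one to -0.095 (GAPDH), and for Fads2 to 0.28 and 0.049 (without both 30% or both control pools). In the dose trend Hsd17b12 was at -0.12 and Agpat3 at 0.0045 without both 30% pools, and Hacd2 at 0.14 without both control pools. Without single pools or single arrays of the pools, Hacd2 ranged from -0.19 to 0.085 and Fads2 from -0.42 to 0.25 in the 1 month slope, -0.11 to 0.10 in the step, -0.13 to 0.22 at 5%, -0.057 to 0.16 at 10%, -0.052 to 0.21 at 20% and -0.071 to 0.063 for duration. The difference between slopes then ranged from -0.034 to 0.82 for Fads1, -0.24 to 0.37 for Fads2, -0.19 to 0.72 for the dimmer one and -0.17 to 0.35 for the brighter Elovl5 probe set. Of 880 member values over all alternatives, 742 kept direction and side of the threshold, 60 lost a call, 34 gained one and 44 changed sign. For 571 values of 25 other genes the numbers were 476, 76, 15 and 4. In both sets most values belong to results that had not passed and so could not lose a call. The counts therefore do not give the share of calls that were lost.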
